A study of Drosophila melanogaster with 2 samples.

Results

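The genes described here encode proteins of the mitochondrial ribosome of Drosophila melanogaster. They are the protein-coding genes whose symbol starts with mRpL (large subunit) or mRpS (small subunit). Any gene for such a protein that carries another symbol is not counted. There are 73 such genes among 13945 protein-coding genes, 47 for the large and 26 for the small subunit. Binding was mapped by chromatin immunoprecipitation and sequencing (ChIP-seq) in a transgenic fly line that stably expresses the protein Sox102F with GFP fused to its C terminus. Chromatin came from whole white prepupae, males and females pooled, and the free-text label names an antibody against GFP, while another label field names Sox102F. The 2 samples, biological replicates 1 and 4, form 1 group, and material from flies without the tag was not analysed here. Whole animals were used, so no peak can be assigned to a tissue.

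Mitochondria translate the messages of their own small genome on a separate ribosome, whose proteins are all encoded in the nucleus, made in the cytoplasm and imported. This ribosome makes core subunits of the respiratory chain and of ATP synthase. Sox102F is the fly member of the SoxD family, proteins that bind DNA through an HMG box. A divergent promoter serves a pair of genes that start close together on opposite strands and are transcribed away from each other, so a peak there lies near both genes.

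The optimal list holds the 7055 peaks that passed the authors' rank-agreement threshold, and not every one of them has an entry in both replicate lists. A gene was counted as having a summit when the highest point of a peak in the optimal list lay within 1 kb of one of its annotated starts. Distances are to the nearest of these starts. Each peak carries the authors' own signal value, used here to rank and describe peaks within a list. Each list has its own scale. In the optimal list the signal ran from 76.7 to 2702, with a median of 135.4. The lists hold no read counts, so the depth is unknown. Coordinates are on dm6. Differences between lists of genes are given as counts and were not tested.

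Sox102F-GFP had a summit at 18 of the 73 mitochondrial ribosomal protein genes (24.7%), against 20.3% of all protein-coding genes, so their share was near the background. 17 of the 18 summits (94.4%) also lay within 1 kb of the start of a divergent neighbour, against 40.3% of the summits of all 2829 protein-coding genes with one. 12 of the 18 were nearer to a neighbour's start than to the start of the ribosomal protein gene. Of the 47 mRpL genes 12 had a summit (25.5%), and of the 26 mRpS genes 6 had one (23.1%). Proteins numbered within the bacterial range (up to 36 in the large and 21 in the small subunit) had a summit at 12 of 42 genes (28.6%). Those numbered above that range had one at 6 of 31 (19.4%).

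8 of the 18 summit windows are printed, in order of signal, to show the runs of A and T that most of them hold. Each holds the summit base and 50 bases to each side of it, from the release 6 assembly, read 5′ to 3′ on the strand of the ribosomal protein gene, with runs of 8 or more A and T in capitals. Windows with more than 30 bases of untranslated region, and those of 1 chromosome arm, are not printed, so several stronger peaks are missing, among them mRpL41 and mRpL23.
mRpS23, chr2L:13835403-13835503, minus strand: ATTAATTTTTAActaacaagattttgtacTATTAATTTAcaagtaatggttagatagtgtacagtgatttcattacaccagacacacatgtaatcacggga
mRpS10, chr3R:15229479-15229579, plus strand: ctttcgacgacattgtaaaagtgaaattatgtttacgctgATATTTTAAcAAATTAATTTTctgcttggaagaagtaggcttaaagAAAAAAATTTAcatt
mRpL24, chr2L:4945442-4945542, minus strand: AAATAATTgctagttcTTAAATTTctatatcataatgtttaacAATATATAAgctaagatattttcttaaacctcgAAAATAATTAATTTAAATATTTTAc
mRpS2, chr2L:4850555-4850655, minus strand: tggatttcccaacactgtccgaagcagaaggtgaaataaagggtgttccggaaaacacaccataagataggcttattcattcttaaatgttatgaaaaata
mRpL20, chr3L:13018051-13018151, minus strand: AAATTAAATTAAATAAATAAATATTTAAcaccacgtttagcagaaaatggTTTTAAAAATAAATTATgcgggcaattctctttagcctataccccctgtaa
mRpL2, chr3L:11120407-11120507, plus strand: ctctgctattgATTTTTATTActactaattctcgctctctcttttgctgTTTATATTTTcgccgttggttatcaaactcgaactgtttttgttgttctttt
mRpS22, chr3R:27916703-27916803, plus strand: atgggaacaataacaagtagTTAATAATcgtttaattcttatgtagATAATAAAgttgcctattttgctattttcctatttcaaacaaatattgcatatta
mRpL17, chr3L:264665-264765, plus strand: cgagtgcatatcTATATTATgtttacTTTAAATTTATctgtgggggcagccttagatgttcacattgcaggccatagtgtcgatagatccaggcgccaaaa

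7 of these 8 windows hold at least 1 such run, and that of mRpS2 holds none. Over all 18 summits the A+T share of such windows ran from 46.5% at mRpL18 to 83.2% at mRpL24, with a median of 67.8%. Windows of the same length 500 bp to each side had a median of 53.0%. The 2970 optimal summits within 1 kb of any protein-coding start had a median of 62.4%, and their flanks 56.4%. A run of 8 or more A and T was present at 15 of the 18 summits (83.3%), against 12 of their 36 flanks (33.3%). Over all promoter summits the run was present at 65.0%, and over their flanks at 48.4%. Summits richer in A and T than their flanks are thus found at promoter peaks in general. From 250 bp before to 50 bp after the start, the median A+T share was 67.1% in the 18 genes with a summit. It was 64.1% in the 55 without one and 62.1% in all protein-coding genes. In this longer window a run of 8 or more was present in 100%, 96.4% and 90.4%, in the same order.

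**Figure D1:**
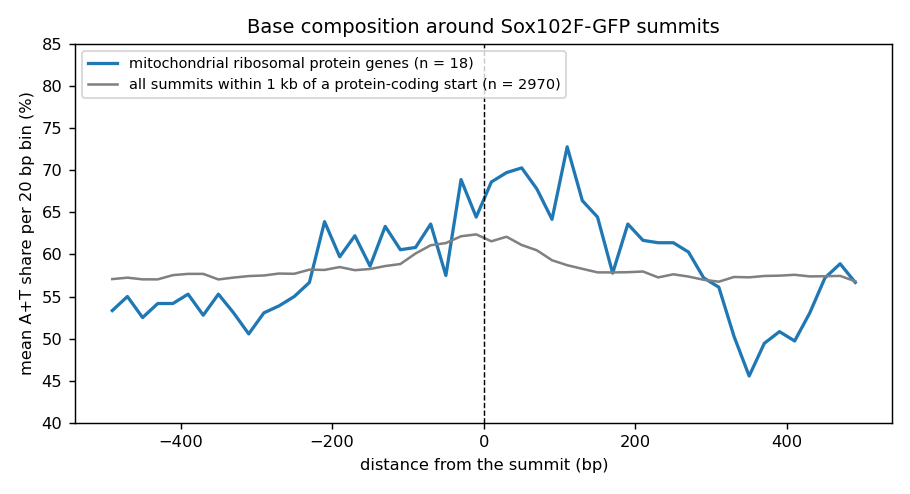
Mean A+T share in 20 bp bins against distance from the summit in bp, for 18 summits at mitochondrial ribosomal protein genes (blue, transcription of the gene to the right) and for 2970 summits within 1 kb of any protein-coding start (grey, genome orientation). Both lines are higher around the summit than over most of the flanks, and the blue line, which rests on 18 sites, varies more from bin to bin.

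Short words bound by known factors were rare in these windows, searched on both strands. AACAAT, an HMG-box word, was in 2 of the 18 (mRpL24 and mRpS22, 11.1%), against 12.1% of all promoter summits. ACAAT, which is contained in it, was in 4 (mRpL18, mRpL24, mRpS10 and mRpS22, 22.2%), against 26.3%. TATCGATA, the element bound by Dref at housekeeping promoters, was in 0 of the 18, against 1.52%. The M1BP word GGTCACAC was also in 0 of the 18, against 1.08%. The Myc and Max word CACGTG was in 0, against 1.14%. The respiratory factor word TGCGCA was in 0, against 2.56%. The Ets word CCGGAAG was in 0, against 0.505%. GAGAGA was in 1 window (mRpL2), against 8.59%, and CAGCTG in 1 (mRpL54), against 5.12%. A word not found says only that these letters were not in the window.

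Signal differed widely among the 18 peaks, from 77.3 to 2339, with a median of 190.5. The 6 small subunit peaks had a median of 264.1 and the 12 large subunit peaks 190.5, over ranges that overlapped. 4 peaks (22.2%) had a signal above 1000, a level reached at 76 of the 2829 protein-coding genes with a summit (2.69%).

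The strongest belonged to mRpS23 (FBgn0260407), a small subunit protein gene, with a peak at chr2L:13835270-13835666. Its signal of 2339 ranked 7 in the optimal list, and the replicates had 1110 (replicate 1) and 1235 (replicate 4). The summit was intergenic, 381 bp upstream of mRpS23 and 111 bp from the start of CenG1A, an Arf GTPase-activating protein gene. The strongest peak at any of these genes was thus the nearer to the neighbour.

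mRpL41 (FBgn0034001), a large subunit gene, had the next, at chr2R:15217568-15217946, with a signal of 1296 and rank 38. Replicate 1 had 569.7 and replicate 4 had 725.8. Its summit lay 136 bp upstream of mRpL41 and 626 bp from CG8079, so here the ribosomal protein gene was the nearer. mRpS10 (FBgn0038307), whose bacterial counterpart is S10 of the small subunit head, had a peak at chr3R:15229343-15229725 with a signal of 1181 and rank 54. The replicates had 543.4 (replicate 1) and 637.5 (replicate 4). That summit was almost midway, 136 bp from mRpS10 and 121 bp from the arginine methyltransferase gene Art3.

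mRpL23 (FBgn0035335), the counterpart of the bacterial protein L23 near the exit of the peptide tunnel, had a peak at chr3L:2373415-2373791. Its signal was 1082 with rank 65, and the replicates had 576.9 (replicate 1) and 505.9 (replicate 4). This was 1 of 2 summits downstream of the start. It lay in the 5′ UTR of mRpL23, 61 bp downstream of the nearest of 3 annotated starts. CG9004 starts 50 bp from that start and was 111 bp from the summit.

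**Figure D2:**
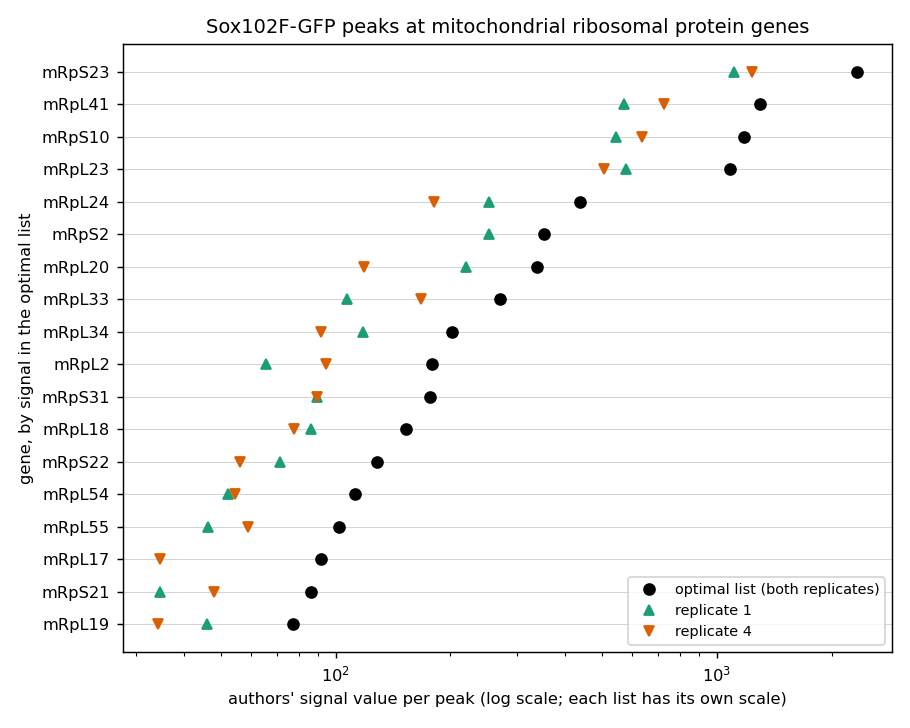
The authors' signal value (log axis; each list has its own scale) for the 18 peaks at mitochondrial ribosomal protein genes, in the optimal list (black), replicate 1 (green) and replicate 4 (orange). 4 peaks lie above 1000 in the optimal list, and mRpS2 lacks an orange mark and mRpL17 a green one because no entry of that replicate lay within 100 bp.

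Below these came 5 genes with signals from 201.5 to 438. mRpL24 (FBgn0031651; signal 438, 252.2 in replicate 1 and 181.3 in replicate 4) had its summit 131 bp upstream and 87 bp from betaggt-I, which encodes the beta subunit of a protein prenyltransferase. mRpL20 (FBgn0036335; signal 338.2, 220.3 and 118.6 in the same order) had its summit 234 bp upstream and 165 bp from Icmt, an isoprenylcysteine methyltransferase gene. In both, the value was higher in replicate 1, with each replicate on its own scale, and the neighbour was the nearer gene.

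mRpS2 (FBgn0031639), the counterpart of bacterial S2, stood apart. Its signal was 351.3 in the optimal list and 253.3 in replicate 1, while replicate 4 had no entry within 1 kb of the summit. Of all promoter summits in the optimal list, 76 (2.56%) lacked a replicate 4 entry within that distance. The summit was 186 bp upstream of mRpS2 and 36 bp from Mon1, whose protein acts with Ccz1 to activate Rab7.

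mRpL33 (FBgn0040907; signal 270, 106.8 in replicate 1 and 167.6 in replicate 4) had a summit 621 bp upstream, inside the 5′ UTR of norpA, the phospholipase C gene of phototransduction, 226 bp from its start. mRpL34 (FBgn0083983; signal 201.5, 117.7 and 91.8) had a summit 190 bp upstream and 194 bp from Dg, the dystroglycan gene. It was among 3 divergent pairs, with those of mRpS10 and mRpL18, whose distances to the summit differed by at most 20 bp.

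The next 5 peaks had signals from 112.7 to 179.5. mRpL2 (FBgn0036135), the counterpart of L2 beside the peptidyl transferase centre in bacteria, was the sole gene of the 18 with a second optimal summit. Its stronger summit (signal 179.5, 65.8 in replicate 1 and 94.5 in replicate 4) lay 390 bp upstream, in an intron of the forkhead factor gene FoxK and 46 bp from a FoxK start. The weaker one (signal 108.1, 45.9 and 41.6) lay 191 bp upstream of mRpL2.

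mRpS31 (FBgn0036557; signal 176.9, 89.5 in each replicate) had a summit 573 bp upstream, in the 5′ UTR of hzg and 116 bp from its start. mRpL18 (FBgn0026741; signal 153, 86.1 in replicate 1 and 77.6 in replicate 4) had a summit 142 bp upstream and 122 bp from the start of Taz, the tafazzin gene of cardiolipin remodelling. The starts of mRpL18 and Taz are 20 bp apart, the closest of the 17 divergent pairs. Tafazzin itself acts in mitochondria.

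mRpS22 (FBgn0039555; signal 128.3, 71.5 in replicate 1 and 56.2 in replicate 4) had a summit 155 bp upstream and 237 bp from CG5003. mRpL54 (FBgn0034579; signal 112.7, 52.3 and 54.4) had one 200 bp upstream and 42 bp from CG15653. In both, the summit was intergenic.

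The last 4 peaks were near the lower end of the optimal list. mRpL55 (FBgn0038678; signal 101.8, 46.3 in replicate 1 and 58.9 in replicate 4) had the most distant summit, 662 bp downstream of its start. That is beyond the end of the 512 bp gene, in the 5′ UTR of the kinase gene cdi. A cdi start on the same strand was 27 bp away. mRpL55 also shares a promoter with ATPsynD, which encodes subunit d of ATP synthase and starts 95 bp from mRpL55. The summit was 757 bp from the ATPsynD start, and the pair is still counted among the 17 divergent pairs.

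mRpL17 (FBgn0035122; signal 91.6, 34.6 in replicate 4) had a summit 64 bp upstream and 335 bp from Tudor-SN, a nuclease-domain protein of the RNA-induced silencing complex. Replicate 1 had an entry of 59.7, 109 bp from that summit and so beyond the 100 bp allowed for a match. mRpS21 (FBgn0044511; signal 86.2, 34.7 in replicate 1 and 47.9 in replicate 4) had a summit 202 bp upstream and 95 bp from Droj2, a DnaJ-like chaperone gene. mRpL19 (FBgn0037608; signal 77.3, 46.0 and 34.2) had a summit 164 bp upstream and is the one gene of the 18 with no neighbour within 1 kb of it.

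16 of the 18 peaks had an entry in both replicates within 100 bp of the optimal summit, and 17 had one in each replicate taken alone. Of all promoter summits in the optimal list, 3.84% lacked such an entry in replicate 1 and 7.10% in replicate 4. At the 16 peaks the replicate summits were a median of 13 bp and at most 89 bp apart. The 100 bp match limited these distances in advance, so they do not measure agreement. The value was higher in replicate 1 at 7 of these peaks and in replicate 4 at 9, each on its own scale.

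Across the 18, the summit was a median of 188 bp from the start of the ribosomal protein gene (61 to 662 bp). In the 17 with a neighbour it was a median of 116 bp from the nearest neighbour's start (27 to 626 bp). It was upstream of the ribosomal protein gene in 16 (88.9%), against 75.1% of all genes with a summit, and downstream in 2. In 12 of the 17 divergent pairs it lay between the starts, which were 20 to 762 bp apart with a median of 384 bp. The neighbour's start was the nearer in 11 of these pairs and the ribosomal protein gene's in 6. Neither split is given here for divergent pairs over all genes, so no difference from them can be read. 12 summits were intergenic, 5 lay in a 5′ UTR and 1 in an intron, and the same shares over all promoter summits are not given here.

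**Figure D3:**
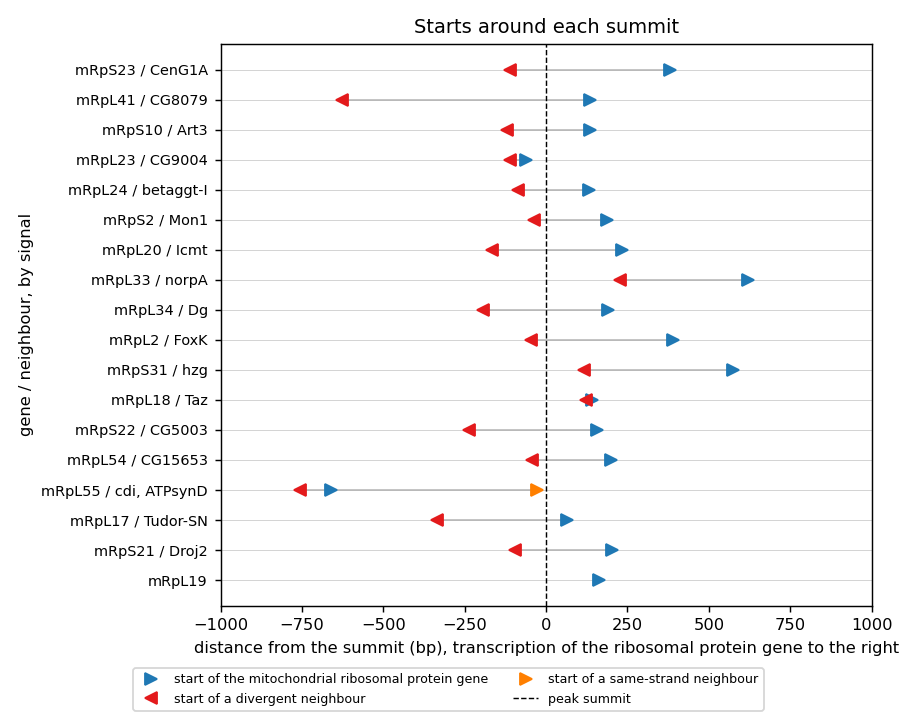
Annotated starts around each of the 18 summits, with distance from the summit in bp on the x axis and transcription of the mitochondrial ribosomal protein gene to the right; genes run from the highest signal at the top to the lowest. Blue marks are starts of ribosomal protein genes, red marks those of divergent neighbours and the orange mark that of cdi; the dashed line falls between blue and red in 12 pairs.

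Divergent neighbours are common at these genes whether or not they have a peak. 58 of the 73 mitochondrial ribosomal protein genes (79.5%) have one, against 36.2% of all protein-coding genes. Among genes with a divergent neighbour, 17 of 58 had a summit (29.3%), against a background of 27.0%. Among genes without one, 1 of 15 had a summit (mRpL19, 6.67%), against 16.5%. When the summit's nearest protein-coding start had to be the gene's own, 6 of 73 remained counted (8.22%), against 16.3% of all genes. These were mRpL17, mRpL19, mRpL23, mRpL34, mRpL41 and mRpS22. That comparison was not matched for divergent neighbours.

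The cytoplasmic ribosomal protein genes, which build the main ribosome of the cell, gave other values. A summit was present at 18 of 73 mitochondrial genes (24.7%), against 61 of 93 cytoplasmic ones (65.6%). The gene's own start was the nearest in 6 of those 18 mitochondrial genes (33.3%), against 55 of the 61 cytoplasmic ones (90.2%) and 77.4% of all genes with a summit. It was the nearest in 9 of the 20 respiratory chain genes with a summit (45.0%). Among the 6 other mitochondrial gene expression genes with a summit, described below, it was the nearest in 4 (66.7%). The median distance from summit to start was 188 bp for mitochondrial and 32 bp for cytoplasmic ribosomal protein genes, and 202 bp for all genes. The summit was shared with a neighbour in 17 of 18 mitochondrial ribosomal protein genes (94.4%), against 40 of the 61 cytoplasmic ones (65.6%), 15 of the 20 respiratory chain genes with a summit and 46.2% of all genes with one. A summit with no neighbour within 1 kb has the gene's own start nearest by definition. The shares with the own start nearest were not matched for this sharing, so they cannot be read apart from it. The lists also differ in annotation. A single start is annotated for 67 of the 73 mitochondrial genes (91.8%), against 48 of the 93 cytoplasmic ones (51.6%) and 73.5% of all genes. Median gene length was 909 bp for mitochondrial and 1318 bp for cytoplasmic ribosomal protein genes, and 2166 bp for all genes. The part of these differences in the counts was not tested.

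**Figure D4:**
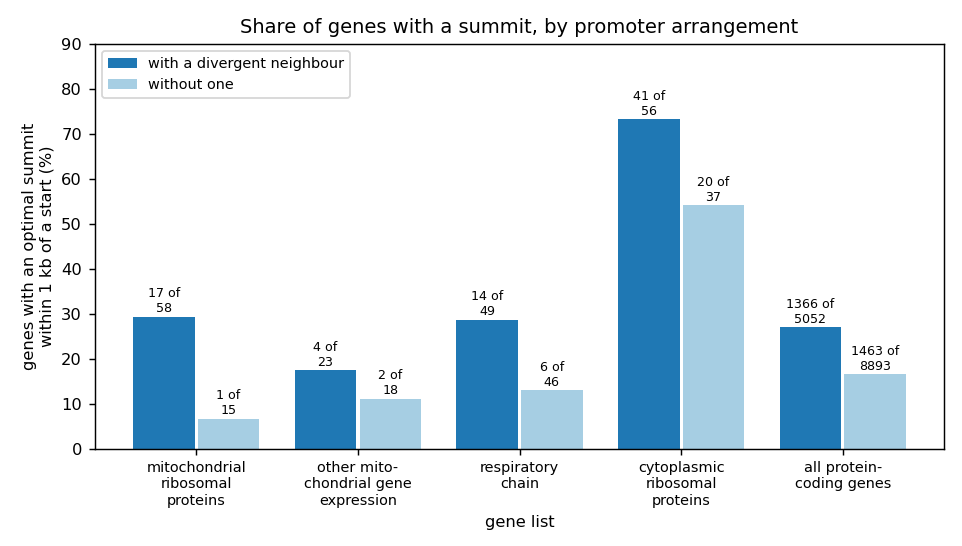
Percentage of genes with an optimal summit within 1 kb of a start, split into genes with (dark) and without (light) a divergent neighbour, for 5 lists of genes, with counts above the bars. Mitochondrial ribosomal protein genes with a divergent neighbour (29.3%) are near all protein-coding genes of that kind (27.0%), and cytoplasmic ribosomal protein genes are at 73.2%.

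A list of other mitochondrial gene expression genes (tRNA synthetases, translation factors and RNA handling; 41 matched, while the 4 names ico, mEFG2, mtRNApol and SLIMP were not) had a summit at 6 genes (14.6%), against 20.3% of all genes. PNPase, the polynucleotide phosphorylase gene, had a signal of 2472, with 1223 in replicate 1 and 1252 in replicate 4, and its own start was nearest at 79 bp. SLIRP2, a gene of the SLIRP family of RNA-binding proteins, had 1044, with 496 and 549.7 in that order. LeuRS-m, a leucyl-tRNA synthetase gene, had 532.2, but its summit was 917 bp away. SLIRP1 had 217.2, ArgRS-m, an arginyl-tRNA synthetase gene, had 114.4, and mIF2, a translation initiation factor, had 83.4. The ArgRS-m peak had no matched entry in replicate 1. Its summit was 305 bp from ArgRS-m and 7 bp from the start of CG17816.

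55 of the 73 genes had no optimal summit within 1 kb, and 36 of them had no entry in any list. 41 of the 55 (74.5%) have a divergent neighbour. The median distance from their starts to the nearest optimal summit was 10805 bp. Inside the 1 kb limit, the genes closest to it were mRpL55 at 662 bp and mRpL33 at 621 bp. Outside it, mRpS7 at 1300 bp, mRpL13 at 1448 bp, mRpL12 at 1930 bp and mRpL46 at 1995 bp were within 2 kb.

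4 of the 55 had an entry in the pooled list, which includes background and reaches down to a signal of 17.5. mRpS25 had 48.7, with 31.6 in replicate 1 and 15.9 in replicate 4. mRpS5 had 39.5, with 25.7 and 13.9, at 10 bp from its start and with no neighbour. mRpL27 had 32.5, with 26.2 in replicate 1 and no entry in replicate 4, and mRpL22 had 28.0, with 19.5 and 16. None of the 4 was among the 7055 strongest pooled entries, and their ranks in that list ran from 11203 (mRpS25) to 18972 (mRpL22). Any pooled entry was present at 22 of the 73 genes (30.1%), against 37.2% of all genes.

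The replicate lists differed in how many of these genes they reached. Among the 7055 strongest entries of each, replicate 1 had a summit at 24 of the 73 genes (32.9%), against 23.8% of all genes. Replicate 4 had one at 17 (23.3%), against 19.5%, and both at 15 (20.5%), against 16.9%. With all 30000 entries, replicate 1 reached 34 genes (46.6%), against 43.0%, and replicate 4 reached 24 (32.9%), against 38.2%. Once weak entries were let in, the share was near the background in each replicate, slightly above it in replicate 1 and slightly below it in replicate 4.

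6 genes were reached by the strongest entries of replicate 1 and by neither those of replicate 4 nor the optimal list (8.22%), against 4.68% of all genes. They were mRpS6 (156.4), mRpS26 (99.9), mRpL53 (72.4), mRpL21 (68.4), mRpL51 (65.8) and mRpS16 (44.3), named after their values were seen. In the other direction, mRpS7 (44.7 in replicate 4) was the 1 gene reached by the strongest entries of replicate 4 alone (1.37%), against 1.23% of all genes. The lowest of the strongest entries was 41.8 in replicate 1 and 40.4 in replicate 4. mRpL37 (FBgn0261380) was the one gene reached by the strongest entries of both replicates without an optimal summit, 1 of 73 (1.37%) against 0.466% of all genes. It had 83.5 in replicate 1 and 71.5 in replicate 4, with summits 70 bp apart, while the nearest pooled summit was 7820 bp away.

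The 1 kb limit and the signal limit moved the count as follows. Within 500 bp there were 15 genes (20.5%), against 17.1% of all genes, without mRpL33, mRpL55 and mRpS31. Within 2 kb there were 22 (30.1%), against 25.4%. With the 3527 strongest optimal peaks there were 12 (16.4%), against 13.0%.

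The starts of these genes carry a feature found with and without a peak. CAGCTG, an E-box word that reads the same on both strands, was present from 250 bp before to 50 bp after the first annotated start in 40 of the 73 genes (54.8%), against 17.7% of all protein-coding genes. Sequences of 60 bases, 30 before the start and 30 from it, show the word in capitals at 3 genes with a summit (mRpL23, mRpL24, mRpS2) and 3 without (mRpL11, mRpL21, mRpL28).
mRpL23, chr3L:2373675-2373734, minus strand: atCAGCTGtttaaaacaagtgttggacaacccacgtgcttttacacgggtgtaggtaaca
mRpL24, chr2L:4945332-4945391, minus strand: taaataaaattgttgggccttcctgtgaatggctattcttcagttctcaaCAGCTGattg
mRpS2, chr2L:4850390-4850449, minus strand: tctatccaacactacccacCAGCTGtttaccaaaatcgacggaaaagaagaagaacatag
mRpL11, chr3R:14511808-14511867, plus strand: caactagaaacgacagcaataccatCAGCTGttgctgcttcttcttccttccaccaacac
mRpL21, chr3L:19255032-19255091, minus strand: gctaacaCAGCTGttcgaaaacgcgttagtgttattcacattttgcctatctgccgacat
mRpL28, chr2L:4973946-4974005, plus strand: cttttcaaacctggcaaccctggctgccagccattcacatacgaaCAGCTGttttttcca

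The median position of the word was -6 bp from the start in genes with a summit (15 words, 12 of them within 100 bp) and +7 bp in genes without (30 words, 27 of them within 100 bp). In a window of 50 bp to each side of the start, chosen after the data were seen, it was present in 11 of 18 genes with a summit (61.1%) and 24 of 55 without (43.6%). The share was 46.3% in the other mitochondrial gene expression genes, 18.9% in respiratory chain genes, 7.53% in cytoplasmic ribosomal protein genes and 9.59% in all protein-coding genes. TATCGATA was in the promoters of 15 of the 73 (20.5%), against 9.37% of all genes; 4 were genes with a summit (mRpL17, mRpL19, mRpL20 and mRpS23) and 11 were not.

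**Figure D5:**
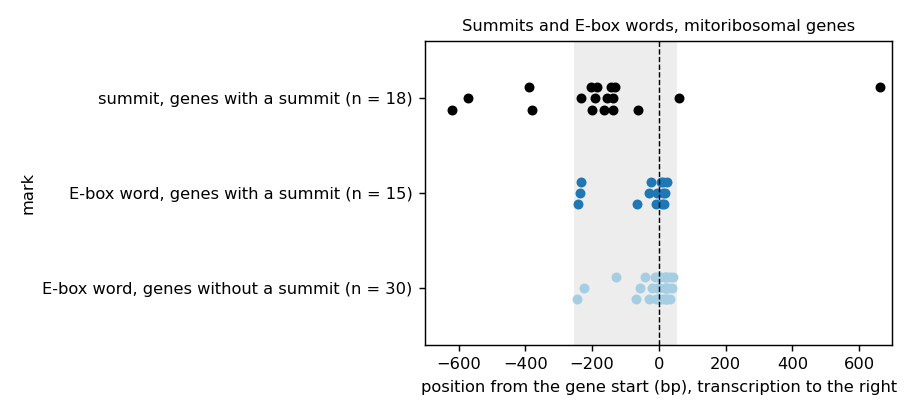
Position relative to the gene start in bp, with transcription to the right, of 18 summits (black) and of the E-box word in genes with a summit (blue, 15 words) and without one (light blue, 30 words); the grey band is the window searched. Most words lie close to the start in both kinds of gene. Of the 18 summits, 16 (88.9%) lie upstream, against 75.1% over all genes with a summit.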

How the data were processed

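ChIP-seq peak lists for 2 biological replicates of 1 group were used. The authors deposited narrowPeak lists on dm6 for replicate 1, replicate 4 and both pooled (30000 entries each, background included) and an optimal list (7055); the dm3 lists were not used. Peaks were ranked by the signal the authors gave them, within a list only. Which aligner, caller and rank-agreement threshold were used is not given in the sources used here. Depth is unknown, since no read counts were given.

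Summits (peak start plus the offset in the list) were placed against protein-coding starts of Ensembl release 115 (assembly BDGP 6.54) with Python 3.11.15, NumPy 2.4.6 and matplotlib 3.10.9, and coordinates were counted from 1. Neighbours are other protein-coding genes starting no farther than 1 kb from the summit. Words were searched on both strands 50 bp to each side of summits and in promoters from 250 bp before to 50 bp after a start. The summit code was checked on simulated data. Every gene with an optimal summit is named, with those of the pooled list among the others. The members and lists were chosen with earlier results of these data known. Windows, thresholds, replicates and word definitions were varied. No test was made, since there is 1 group.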

Additional observations from a re-analysis of the deposited data

How the results depend on the processing

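Of 46 alternatives, 34 left a value within its margin and 12 moved it. The cause was not tested. For counts of genes the margin was a ratio of 1.5, so 12 and 24 genes with a summit both passed as unchanged from 18. Requiring the gene's own start to be nearest cut the 18 genes with a summit to 6. With the 3527 strongest optimal peaks, genes with their own start nearest numbered 3, the share of all genes was 13% and the median signal 344.8, a change built into that choice. The median distance was 164 bp within 500 bp and 218 bp within 2 kb of a start, and the median signal 201.5 and 304.1. Searching 100 bp to each side found TATCGATA at 1 summit. With 1 replicate left out, genes with a summit numbered 17 to 24, shared promoters 17 to 23, own start nearest 4 to 8, the share of all genes 19.5% to 23.8%, the median distance 167.5 to 180 bp and the median signal 87.8 to 91.8 (another scale). No paired analysis was possible because there is 1 group. With no read counts, a gene without a summit cannot be called unbound.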
